A study of Mus musculus with 5 samples.

Results

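SoxC and neuronal differentiation factors are 8 transcription factor genes, taken here as a fixed list from the 55421 genes of the deposited count table: the SoxC genes Sox4, Sox11 and Sox12, the helix-loop-helix genes Nhlh1, Nhlh2, Neurod1 and Neurod2, and the zinc finger gene Insm1. They were selected on their known roles with their counts in all 5 libraries, and so the difference between Yy1 cKO and control, already seen; their own changes are therefore a description and support nothing. All 8 passed the filter on low counts, but Nhlh1 passed through the control libraries alone. Whole cerebella were profiled by strand-specific, rRNA-depleted bulk RNA-seq at postnatal day 14 in 3 Yy1 cKO libraries (Pcp2 Cre/+ with Yy1 fx/fx) and 2 control libraries from littermates (Pcp2 Cre/+ with Yy1 fx/+). Both groups therefore carried the Pcp2 Cre and at least 1 Yy1 fx allele, and neither was free of Cre. Among cerebellar neurons Pcp2 is known from Purkinje cells, which carry the output of the cortex, so most cells of the tissue lie outside the reach of this Cre. The labels call the animals mixed in sex and do not say which animal each library came from, so errors cover the spread between these libraries, which may be technical.

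The SoxC proteins share an HMG box that binds DNA, and they switch on genes of the neuronal cytoskeleton in cells that have just left the cell cycle. Neuronal helix-loop-helix factors bind E boxes as dimers with the widely expressed E proteins, and Id proteins block this by taking up the E proteins. In the postnatal cerebellum granule cell precursors divide in the external granular layer under Atoh1, leave the cycle, switch on factors such as Neurod1 and Nhlh1, and migrate inward to become the granule neurons, the most abundant neurons of the brain. Insm1 recruits histone-modifying corepressors and is known from progenitors that are about to become neurons or endocrine cells.

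Total counts were 18872728 to 20305705 in the Yy1 cKO libraries and 17424860 and 18007663 in the controls. Yy1 itself stood at 73.4 to 81.7 CPM (read counts scaled to the size of each library, with TMM factors) in Yy1 cKO and at 73.7 and 74.6 CPM in controls, a weak check of the labels in whole tissue, where Cre acts in few of the cells. Yy1 cKO 3 stood apart from the other libraries on the second principal component (18.5% of the variance of log2 CPM). Results without it are given where a list's count changed, with values for only some of the genes whose call changed. Of 20388 genes tested, 23.4% were called, that is passed an adjusted p of 0.05 in edgeR's quasi-likelihood test with Benjamini-Hochberg adjustment, 12.6% as lower and 10.7% as higher in Yy1 cKO. Beside that, 7 of the 8 factors were called lower and 0 higher; at an unadjusted p under 0.05 and by DESeq2 the counts were again 7 and 0. Nothing is read from this count, since the genes were chosen with this contrast known.

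The 8 factors spread over a wide range of change, from near loss of Nhlh1 and Insm1 through Sox11, Sox4, Nhlh2 and Sox12 to Neurod2 and Neurod1, which kept most of their level. As a share of the control mean, the Yy1 cKO mean was 1.34% for Nhlh1, 2.61% for Insm1, 7.60% for Sox11, 20.1% for Sox4, 42.5% for Nhlh2, 49.4% for Sox12, 70.6% for Neurod2 and 93.2% for Neurod1. In each of the 8 every Yy1 cKO library lay below both controls in CPM, an arrangement that 27% of all tested genes shared. In bulk tissue fewer cells of a type and less RNA per cell cannot be told apart, here and in every value that follows.

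**Figure D1:**
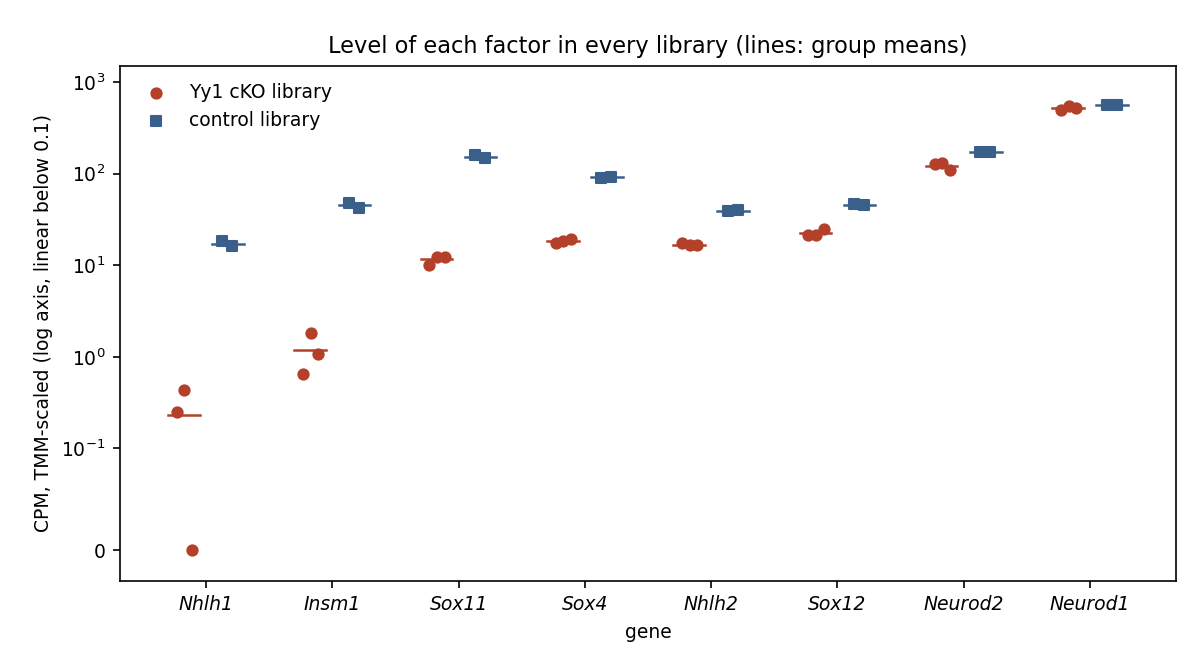
CPM (TMM-scaled, log axis that is linear below 0.1) of the 8 factors, ordered by their change, in 3 Yy1 cKO libraries (red circles) and 2 control libraries (blue squares), with lines at the group means. The distance between the groups narrows from Nhlh1, with 1 Yy1 cKO library at 0, to Neurod1, where 497 to 542 CPM face 559 CPM in both controls.

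Among the SoxC genes the change was deepest in Sox11 (ENSMUSG00000063632.6, chromosome 12, 27334264 to 27342574, minus strand, GRCm38), a gene of 1 exon known from newborn neurons. It had 202, 227 and 232 counts in Yy1 cKO 1, 2 and 3, against 2968 and 2653 in controls 1 and 2. The 3 Yy1 cKO libraries were close to each other and far below both controls. Its level was 11.7 ± 1.3 CPM in Yy1 cKO (SD, n = 3) and 154 ± 8.1 CPM in controls (SD, n = 2), a log2 fold change of -3.72 ± 0.089 (SE), which is 13.2-fold lower. Only 0.255% of all tested genes had a lower log2 fold change.

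Sox4 (ENSMUSG00000076431.4, chromosome 13, 28948919 to 28953713, minus strand), also of 1 exon and active in many immature cell types, had 346, 338 and 359 counts in Yy1 cKO and 1672 and 1667 in controls. The libraries within each group were nearly level. It stood at 18.4 ± 0.94 CPM in Yy1 cKO and 91.4 ± 2.2 CPM in controls, a log2 fold change of -2.31 ± 0.070. An opposite-strand lincRNA, Gm26735, overlaps Sox4, and 54.1% of the 50-base windows of the Sox4 transcript also lie in it. Gm26735 is not among the matched genes of the count table. The strand setting of the authors' counting is not given in the sources used here, so reads of the lincRNA could have counted for Sox4.

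Sox12 (ENSMUSG00000051817.8, chromosome 2, 152393611 to 152398063, minus strand), the weakest activator of the family, had 431, 392 and 468 counts in Yy1 cKO and 860 and 823 in controls. All Yy1 cKO libraries lay well below both controls. Its level was 22.8 ± 2.1 CPM in Yy1 cKO and 46.1 ± 0.22 CPM in controls, a log2 fold change of -1.02 ± 0.091.

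The makeup of the SoxC transcripts therefore differed between the groups. Per length (RPKM, the CPM divided by the exon length in kilobases), Sox4, Sox11 and Sox12 summed to 9.73, 10.2 and 11.2 in Yy1 cKO 1, 2 and 3 and to 48.3 and 47.5 in the controls. Sox11 made up 12.6 to 14.7% of that sum in Yy1 cKO and 37.5 and 39.7% in controls. Sox12 made up 47.4 to 50.6% in Yy1 cKO and 21.5 and 21.7% in controls, and Sox4 made up 36.0 to 37.9% in Yy1 cKO and 38.8 and 40.8% in controls. The shares within each group were tight and those of Sox11 and Sox12 changed places between the groups. The ratio of Sox11 to Sox12 was 0.251, 0.310 and 0.266 in Yy1 cKO and 1.85 and 1.73 in controls, a measure that needs no scaling between libraries.

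**Figure D2:**
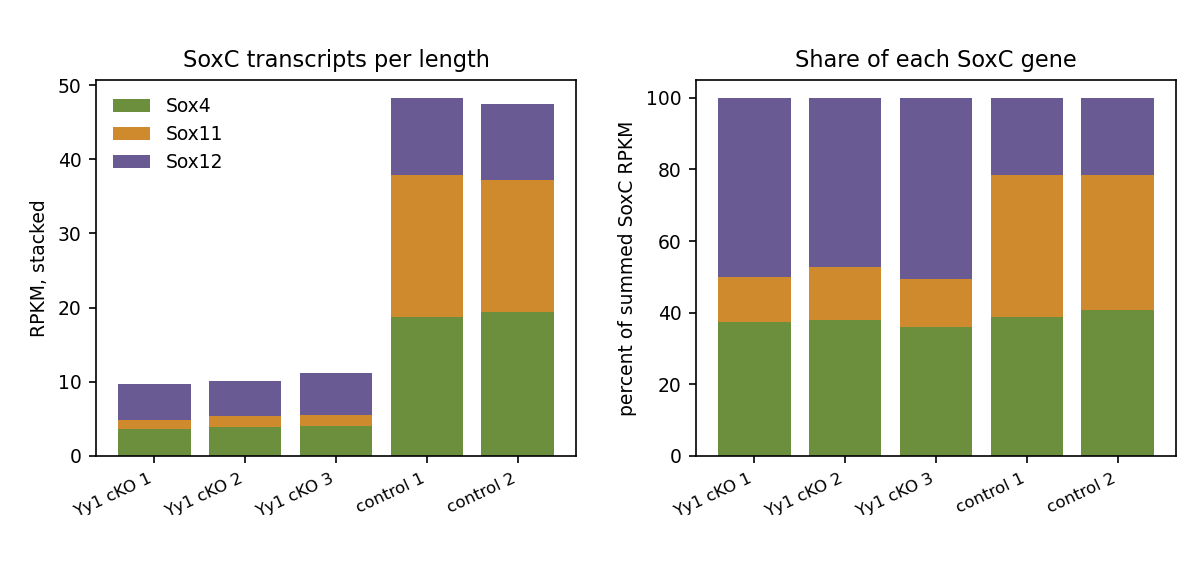
Left, RPKM of Sox4, Sox11 and Sox12 stacked for each of 3 Yy1 cKO and 2 control libraries; right, the percent of the summed SoxC RPKM that each gene made up. The Yy1 cKO stacks reach 9.73 to 11.2 RPKM, the controls 47.5 and 48.3, and Sox12 makes up 47.4 to 50.6% in Yy1 cKO against 21.5 and 21.7% in controls.

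How far SoxC messages could be mistaken for each other in counting is seen in the coding sequence of the closest pair, Sox11 and Sox4, where it is most alike. The stretches below (from GENCODE M21 transcripts, GRCm38, 150 bases each, from the region that encodes the HMG box) are chr12:27342094-27342243 in Sox11 and chr13:28952677-28952826 in Sox4, both on the minus strand. Capitals mark the 16 bases of Sox4 that differ from Sox11.
Sox11: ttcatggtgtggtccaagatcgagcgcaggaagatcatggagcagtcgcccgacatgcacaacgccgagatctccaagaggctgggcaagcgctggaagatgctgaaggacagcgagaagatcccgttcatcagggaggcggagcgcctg
Sox4: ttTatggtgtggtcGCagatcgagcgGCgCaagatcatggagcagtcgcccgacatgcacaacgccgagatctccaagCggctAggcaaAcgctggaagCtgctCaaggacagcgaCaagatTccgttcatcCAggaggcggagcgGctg
Blocks without gaps were chosen by the best score, in which identical bases add and differing bases subtract. Over that block Sox11 and Sox4 were identical in 88.4% of 259 coding bases, with no identical run above 48 bases. Sox11 and Sox12 were identical in 83.1% of 266 bases, with no run above 20. No 50-base window of the Sox11 or Sox12 transcripts occurred in a transcript of any other gene, and none of Sox4 occurred outside Gm26735.

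The pair Nhlh1 and Nhlh2, small helix-loop-helix proteins of early neurons, parted widely. Nhlh1 (ENSMUSG00000051251.3, chromosome 1, 172052292 to 172057573, minus strand) had 5, 8 and 0 counts in Yy1 cKO 1, 2 and 3 and 340 and 289 in controls. All Yy1 cKO libraries were near the limit of detection and far below both controls; a count of 0 in Yy1 cKO 3 allows up to 3 counts, or 0.161 CPM. Its mean was 0.230 ± 0.22 CPM in Yy1 cKO and 17.2 ± 1.5 CPM in controls, a log2 fold change of -6.19 ± 0.41. That value was -6.98 without Yy1 cKO 2 and -5.63 without Yy1 cKO 3, and since the counts in Yy1 cKO are this few its size is loosely set. Only 0.0245% of tested genes had a lower log2 fold change.

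Nhlh2 (ENSMUSG00000048540.8, chromosome 3, 102010076 to 102015492, plus strand), known in mouse also from hypothalamic neurons, had 345, 302 and 308 counts in Yy1 cKO and 725 and 721 in controls. It was well measured in all 5 libraries. Its level was 16.8 ± 0.48 CPM in Yy1 cKO and 39.6 ± 0.89 CPM in controls, a log2 fold change of -1.23 ± 0.084. Per length the Nhlh1 to Nhlh2 ratio was 0.0319, 0.0582 and 0 in Yy1 cKO and 1.03 and 0.881 in controls. In controls the pair stood level, and in Yy1 cKO nearly all of their joint transcript was Nhlh2.

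The coding stretches of the pair that encode the helix-loop-helix domain show how close these relatives are: chr3:102012885-102013004 (plus strand) in Nhlh2 and chr1:172053953-172054072 (minus strand) in Nhlh1, with capitals at the 17 of 120 bases where Nhlh1 differs.
Nhlh2: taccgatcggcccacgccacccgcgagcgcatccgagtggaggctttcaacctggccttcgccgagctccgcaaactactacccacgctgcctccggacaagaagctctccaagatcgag
Nhlh1: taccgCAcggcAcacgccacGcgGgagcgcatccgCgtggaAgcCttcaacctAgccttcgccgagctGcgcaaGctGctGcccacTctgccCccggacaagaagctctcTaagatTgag
Their best-scoring block without gaps was identical in 83.4% of 229 bases with no run above 20, and no 50-base window of Nhlh1 occurred in another gene's transcript. For Nhlh2 0.147% of windows did.

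Insm1 (ENSMUSG00000068154.5, chromosome 2, 146221921 to 146225020, plus strand), the zinc finger repressor, is a gene of 1 exon. It had 13, 33 and 20 counts in Yy1 cKO 1, 2 and 3 and 893 and 759 in controls. All Yy1 cKO libraries lay close to the bottom of the measurable range, and their relative spread was wide, with a coefficient of variation of 49.5% against 8.85% in controls. The means were 1.18 ± 0.58 CPM in Yy1 cKO and 45.2 ± 4.0 CPM in controls, a log2 fold change of -5.27 ± 0.26. Only 0.0540% of tested genes had a lower log2 fold change.

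Neurod1 and Neurod2 mark granule neurons from cell cycle exit onward and remain on in the mature cells. Neurod2 (ENSMUSG00000038255.6, chromosome 11, 98325415 to 98329648, minus strand) had 2550, 2380 and 2032 counts in Yy1 cKO 1, 2 and 3 and 3249 and 3099 in controls. Yy1 cKO 3 was the lowest library. Its level was 123 ± 11.7 CPM in Yy1 cKO and 174 ± 1.2 CPM in controls, a log2 fold change of -0.50 ± 0.077 with a 95% interval of -0.68 to -0.33.

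Neurod1 (ENSMUSG00000034701.9, chromosome 2, 79452521 to 79456751, minus strand), required in mouse for granule cells to survive and mature, was the member that was not called. It had 9872, 9901 and 9769 counts in Yy1 cKO and 10396 and 10029 in controls. The Yy1 cKO libraries lay just under the controls, at 521 ± 22.8 CPM in Yy1 cKO and 558.9 ± 0.51 CPM in controls. The log2 fold change was -0.10 ± 0.063 with a 95% interval of -0.24 to 0.04, so a fall of more than that lower bound is outside the interval while no change is inside it. Cerkl on the same strand and the lincRNA Gm26755 on the other overlap Neurod1, and 9.66% of its 50-base windows are shared with them. Reads shared with Cerkl may have been set aside or assigned otherwise. Gm26755 is not among the matched genes of the count table, so its reads could have counted for Neurod1, depending on the strand counted.

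The Neurod1 to Neurod2 ratio per length was 4.46, 4.79 and 5.54 in Yy1 cKO and 3.68 and 3.73 in controls. Every Yy1 cKO library was above both controls. The stretches of the helix-loop-helix region below, chr2:79454582-79454701 in Neurod1 and chr11:98327818-98327937 in Neurod2 (minus strand), differ at 12 of 120 bases, marked by capitals in Neurod2.
Neurod1: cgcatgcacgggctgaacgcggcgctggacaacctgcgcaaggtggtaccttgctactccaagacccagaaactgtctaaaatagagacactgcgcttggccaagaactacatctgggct
Neurod2: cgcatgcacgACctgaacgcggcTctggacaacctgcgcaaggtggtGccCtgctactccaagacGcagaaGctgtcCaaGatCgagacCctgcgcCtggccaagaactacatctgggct
Their best-scoring block was identical in 78.5% of 423 bases with no run above 25, and no 50-base window of Neurod2 occurred in another gene's transcript.

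**Figure D3:**
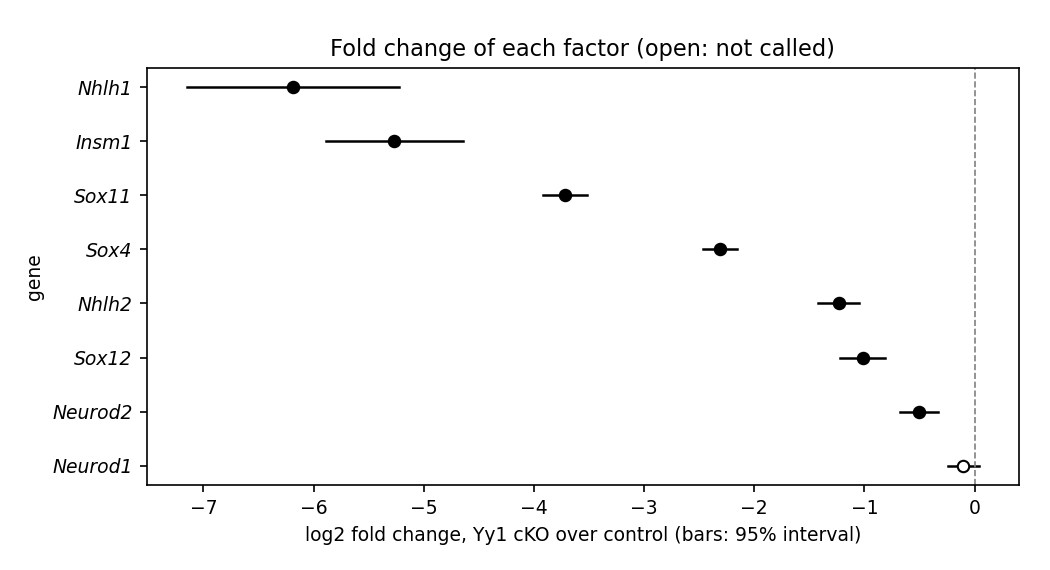
Log2 fold change of the 8 factors, Yy1 cKO over control, from edgeR's fit on all genes, with 95% intervals; filled points were called and the open point was not. The values run from -6.19 for Nhlh1 to -0.10 for Neurod1, the interval of which includes 0.

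The order of the levels changed with these falls. Per length, the controls had Neurod1 at 204.8 ± 0.19 RPKM and Neurod2 at 55.3 ± 0.39 RPKM, followed by Sox4 (19.1 ± 0.46), Sox11 (18.5 ± 0.98), Insm1 (14.6 ± 1.3), Sox12 (10.3 ± 0.049), Nhlh2 (7.31 ± 0.16) and Nhlh1 (6.98 ± 0.62). Sox4 and Sox11 overlapped between the control libraries, as did Nhlh2 and Nhlh1. In Yy1 cKO Neurod1 stood at 191 ± 8.4 and Neurod2 at 39.0 ± 3.7 RPKM, followed by Sox12 (5.11 ± 0.46), Sox4 (3.84 ± 0.20), Nhlh2 (3.10 ± 0.088), Sox11 (1.41 ± 0.16), Insm1 (0.380 ± 0.19) and Nhlh1 (0.0933 ± 0.089). There, no neighbours in the order overlapped. Sox12 moved to the third place in Yy1 cKO, against the sixth in controls.

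By likeness of pattern, the nearest genes were sought among those of at least 1 mean CPM, leaving out predicted genes without a name, by the root mean square difference of log2 CPM over the 5 libraries after centring on the control mean. With only a pair of groups this mostly finds genes of the same fold change, and it says nothing of shared function. For Sox4 they were Dpysl3 (0.0542), Scn3b (0.109) and Tpx2 (0.118). For Sox11 they were Cenpf (0.155), Dcx (0.175) and Fxyd7 (0.217), for Sox12 Zfp945 (0.0429), Rimklb (0.0579) and Prr36 (0.0581), and for Nhlh2 Epop (0.0420), the pseudogene H3f3a-ps2 (0.0452) and Sema6a (0.0536). Nhlh1 and Insm1 had no near match: the closest to Nhlh1 were Hist1h3c (0.819), Insm1 (0.957) and Mki67 (1.2), and the closest to Insm1 were Hist1h3c (0.584), Top2a (0.812) and Mki67 (0.877). Both had 33 counts or fewer in each Yy1 cKO library, so their log2 CPM there is loosely set. How much this adds to the distances was not tested. Neurod2 was nearest to Cacna2d1 (0.0275), Pak7 (0.0397) and Tpm4 (0.0411), and Neurod1 to Zfp146 (0.0127), Pygo2 (0.0137) and Ispd (0.0152). Among the 8 themselves, Sox12 and Nhlh2 were the closest pair (0.191) and Nhlh1 and Neurod1 the farthest (4.61).

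The promoters of 7 factors were available from RefSeq (GRCm38.p6), and that of Insm1 was not used here. The 250 bases before the annotated start were searched on both strands for the E box CANNTG, the E box CAGCTG that it includes, the SOX motif AACAAT, the CCAAT box and ATGGCG, the core of the YY1 motif; the motifs were chosen after the sequences had been read. All 7 held an E box, as did 66.2% of 32851 promoters of the same length, and 2 held CAGCTG (13.0% of all promoters). A CCAAT box was found in 6 of 7 (33.9% of all promoters), ATGGCG in 2 of 7, Neurod1 and Neurod2 (5.73%), and AACAAT in 0 of 7 (9.42%). Such a match is a description of letters and no evidence of binding, and a missing match says only that the letters are not in this window.

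The upstream sequences of the 2 factors with the deepest change that have one, and of the pair with the least, are shown 5′ to 3′ up to the first annotated start, with CCAAT and ATGGCG on either strand in capitals. They cover chr1:172057597-172057846 for Nhlh1, chr12:27342719-27342968 for Sox11, chr11:98329649-98329895 for Neurod2 and chr2:79456752-79456886 for Neurod1, all on the minus strand.
Nhlh1: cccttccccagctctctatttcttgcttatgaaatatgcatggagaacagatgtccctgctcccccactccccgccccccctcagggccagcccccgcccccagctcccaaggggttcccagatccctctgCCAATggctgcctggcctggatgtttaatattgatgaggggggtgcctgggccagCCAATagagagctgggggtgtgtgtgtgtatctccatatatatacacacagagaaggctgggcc
Sox11: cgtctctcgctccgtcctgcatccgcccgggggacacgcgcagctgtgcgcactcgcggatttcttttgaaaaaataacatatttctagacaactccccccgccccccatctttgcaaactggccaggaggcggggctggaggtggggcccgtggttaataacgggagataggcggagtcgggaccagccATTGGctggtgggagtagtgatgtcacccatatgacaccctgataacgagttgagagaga
Neurod2: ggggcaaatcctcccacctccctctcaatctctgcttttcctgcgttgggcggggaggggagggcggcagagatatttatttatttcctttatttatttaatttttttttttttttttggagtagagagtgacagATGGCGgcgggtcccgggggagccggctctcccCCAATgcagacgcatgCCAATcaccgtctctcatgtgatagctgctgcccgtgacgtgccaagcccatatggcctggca
Neurod1: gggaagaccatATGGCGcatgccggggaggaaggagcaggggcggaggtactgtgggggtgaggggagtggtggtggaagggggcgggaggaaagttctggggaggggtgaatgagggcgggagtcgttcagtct
The CCAAT boxes lie in Nhlh1, Sox11 and Neurod2 and the ATGGCG cores in Neurod2 and Neurod1, so of these 4 Neurod2 was the one with both.

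The partners and regulators of these factors were read from 9 lists written with earlier results known, with 69 genes in all. Of the 60 that were tested 23 fell and 4 rose, beside 12.6% and 10.7% of all tested genes. The median log2 fold change was -0.27, and that of all tested genes was 0.00 (-0.000857). Without control 1 or control 2 the lower count was 13 and 14, and without Yy1 cKO 3 it was 32; the higher count was 1, 0 and 7 there and 2 without Yy1 cKO 1. Atoh1 and Neurod4, both among the 23 lower, passed the filter on low counts through the control libraries alone. Nothing is called particular to these lists. Adjusted p-values below are from edgeR's quasi-likelihood test over all tested genes, and levels are CPM with SD (n = 3 for Yy1 cKO, n = 2 for controls).

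The E proteins, the dimer partners of the helix-loop-helix factors, gave no call among 3 (edgeR 0 at an unadjusted p under 0.05, DESeq2 0). Tcf3 stood at 40.7 ± 1.7 CPM in Yy1 cKO and 43.7 ± 0.066 in controls and Tcf12 at 141 ± 0.91 in Yy1 cKO and 144 ± 1.0 in controls. Tcf4 stood at 499 ± 28.8 in Yy1 cKO and 552 ± 3.1 in controls (log2 fold change -0.15 ± 0.066, adjusted p = 0.15) and was called lower without Yy1 cKO 3 (adjusted p = 0.0064). In each of the 3 every Yy1 cKO library lay below both controls in CPM, an arrangement that 27% of all tested genes shared. These are levels of the whole tissue and do not show those of the cells that express Nhlh1.

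Of the 4 Id genes, which hold E proteins back, 1 fell: Id3 stood at 9.84 ± 1.3 CPM in Yy1 cKO and 21.7 ± 1.7 CPM in controls (-1.14 ± 0.13, adjusted p = 2.1e-04). Id1 (-0.41 ± 0.18), Id2 (-0.31 ± 0.17) and Id4 (0.20 ± 0.085) were not called (adjusted p = 0.125, 0.255 and 0.13), although Id1 and Id2 were called lower without Yy1 cKO 3 (adjusted p = 0.034 and 0.029), with log2 fold changes of -0.51 and -0.17 there.

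The proneural factors that act before the 8 were rare. Atoh1, which specifies granule cell precursors, had 0, 1 and 0 counts in Yy1 cKO and 16 and 19 in controls and was called lower (adjusted p = 0.0012). Like Nhlh1, Atoh1 passed the filter on low counts through the control libraries alone. Its call is therefore a description and supports nothing. Neurog2 had 12, 3 and 5 counts in Yy1 cKO and 21 and 15 in controls (adjusted p = 0.069), and was called without Yy1 cKO 1 (adjusted p = 0.029). The lower count of the 3 tested genes, 1 in the main test, was 2 without Yy1 cKO 1 or Yy1 cKO 3. Neurog1 and Ptf1a were listed at 0 in all 5 libraries.

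Of 8 other neuronal helix-loop-helix factors 5 were tested and 3 fell (2 without control 1, control 2 or Yy1 cKO 1). Neurod4, a relative of Neurod1 known from retina and early neurons, had 0, 1 and 3 counts in Yy1 cKO and 33 and 24 in controls (adjusted p = 0.0010). It too passed the filter through the control libraries alone, so its call is likewise a description. Neurod6 stood at 2.21 ± 0.13 CPM in Yy1 cKO and 4.70 ± 0.42 CPM in controls (-1.09 ± 0.19, adjusted p = 0.0032). Bhlhe22 stood at 71.8 ± 12 CPM in Yy1 cKO and 107.5 ± 0.39 CPM in controls (-0.58 ± 0.13, adjusted p = 0.018), and its call was lost without control 1, control 2 or Yy1 cKO 1 (adjusted p = 0.089, 0.098 and 0.059). Atoh7 went the other way, with 170, 121 and 331 counts in Yy1 cKO and 46 and 72 in controls, but missed the threshold (1.76 ± 0.60, adjusted p = 0.12) unless Yy1 cKO 3 was left out (1.23, adjusted p = 6.7e-04).

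Of 7 Hes and Hey factors, most of them repressors of neuronal differentiation downstream of Notch, 2 fell and 1 rose, and without Yy1 cKO 3 the counts were 4 and 1. Hes1 stood at 5.59 ± 0.71 CPM in Yy1 cKO and 2.59 ± 0.43 CPM in controls (1.11 ± 0.21, adjusted p = 0.0041), a call lost without control 2 (adjusted p = 0.057). Hes5 (-1.21 ± 0.26, adjusted p = 0.0085) and Heyl (-1.06 ± 0.19, adjusted p = 0.0033) fell, but neither passed with control 1 left out (adjusted p = 0.075 and 0.054). Hes6, which promotes differentiation, missed the threshold (-0.51 ± 0.17, adjusted p = 0.058), but passed it with Yy1 cKO 3 left out (adjusted p = 0.014). The direction of this family was thus mixed.

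Of 9 other zinc finger factors of neurons 8 were tested, 4 fell and 0 rose (1 higher at an unadjusted p under 0.05, 0 by DESeq2). Without Yy1 cKO 3, 4 were lower and 2 higher, Scrt1 (0.26, adjusted p = 3.7e-04) and St18 (0.15, adjusted p = 0.041), and without control 1, control 2 or Yy1 cKO 1 the lower count was 2. Scrt2, a Snail-type repressor of newly born neurons, had 265, 294 and 184 counts in Yy1 cKO and 1372 and 1183 in controls (-2.41 ± 0.18, adjusted p = 3.0e-04). Bcl11a stood at 14.7 ± 0.75 CPM in Yy1 cKO and 23.3 ± 0.63 CPM in controls (-0.66 ± 0.097, adjusted p = 0.0011). The small falls of Zbtb18 (-0.27 ± 0.077, adjusted p = 0.032) and Myt1 (-0.17 ± 0.054, adjusted p = 0.048) were less firm. Without control 1, control 2 or Yy1 cKO 1 the adjusted p was 0.13, 0.21 and 0.068 for Zbtb18 and 0.30, 0.15 and 0.15 for Myt1, and it was 0.12 for Myt1 without Yy1 cKO 2.

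The corepressor genes around LSD1 and CoREST, with which Insm1 works, gave 5 lower and 1 higher of 11, and 2 lower and 0 higher without control 1 or control 2 (edgeR; 4 lower and 1 higher by DESeq2). Without Yy1 cKO 1 the counts were 3 and 0. Rcor2, the CoREST subunit of progenitors, stood out with 81, 108 and 55 counts in Yy1 cKO and 851 and 694 in controls, or 4.31 ± 1.5 CPM in Yy1 cKO and 42.2 ± 5.0 CPM in controls (-3.29 ± 0.24, adjusted p = 2.5e-04). Its relative Rcor1 (-0.32 ± 0.073, adjusted p = 0.012), the demethylase gene Kdm1a (-0.30 ± 0.057, adjusted p = 0.0050) and the deacetylase gene Hdac2 (-0.54 ± 0.056, adjusted p = 1.6e-04) fell little. Kdm1a and Rcor1 did not pass without control 1 (adjusted p = 0.056 and 0.065) or control 2 (adjusted p = 0.068 and 0.13), nor Rcor1 without Yy1 cKO 1 (adjusted p = 0.058).

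Of 16 other SOX genes 13 were tested, 4 fell and 2 rose. The lower count was 2 without control 2 or Yy1 cKO 1, and without Yy1 cKO 3 it was 6, with 1 higher. Sox7 (-0.93 ± 0.29, adjusted p = 0.043) was not called without control 1 (adjusted p = 0.19), control 2 (0.14), Yy1 cKO 1 (0.12) or Yy1 cKO 3 (0.059). Sox10, of oligodendrocytes (-0.29 ± 0.092, adjusted p = 0.047), was not called without control 2 (adjusted p = 0.37), Yy1 cKO 1 (0.12) or Yy1 cKO 2 (0.12). Sox5, an SoxD gene, stood at 37.3 ± 1.9 CPM in Yy1 cKO and 65.1 ± 5.8 CPM in controls (-0.81 ± 0.078, adjusted p = 9.7e-05). Sox3, of neural progenitors, had 7, 12 and 7 counts in Yy1 cKO and 34 and 35 in controls (-2.02 ± 0.36, adjusted p = 0.0030). Sox1, known from Bergmann glia, and Sox21 were higher (0.36 ± 0.098 and 0.59 ± 0.18, adjusted p = 0.024 and 0.037). Neither call held without control 1 (adjusted p = 0.14 and 0.12) or control 2 (0.12 and 0.21), nor did Sox1 hold without Yy1 cKO 1 (0.063) or Sox21 without Yy1 cKO 2 (0.081) or Yy1 cKO 3 (0.051).

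Of 7 genes reported in mouse as SoxC targets 4 fell and 0 rose (0 higher also at an unadjusted p under 0.05 and by DESeq2). Without Yy1 cKO 3, 5 were lower, Nrcam being added (-0.17, adjusted p = 0.018), and Plxna1 was higher (0.16, adjusted p = 0.016); without control 1 the lower count was 2. Dcx, a microtubule protein of migrating neurons, had 414, 364 and 377 counts in Yy1 cKO and 5842 and 5088 in controls (-3.88 ± 0.066, adjusted p = 2.8e-09). Tead2, the partner of YAP, stood at 2.33 ± 0.40 CPM in Yy1 cKO and 7.63 ± 0.69 CPM in controls (-1.70 ± 0.19, adjusted p = 2.2e-04). Tubb3, a neuronal tubulin, fell by 0.60 ± 0.15 (adjusted p = 0.039), a call lost without control 1, control 2 or Yy1 cKO 1 (adjusted p = 0.15, 0.12 and 0.051), and Hes5 is given above. Dcx was the target closest to Sox11 in pattern, and the others were spread widely.

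**Figure D4:**
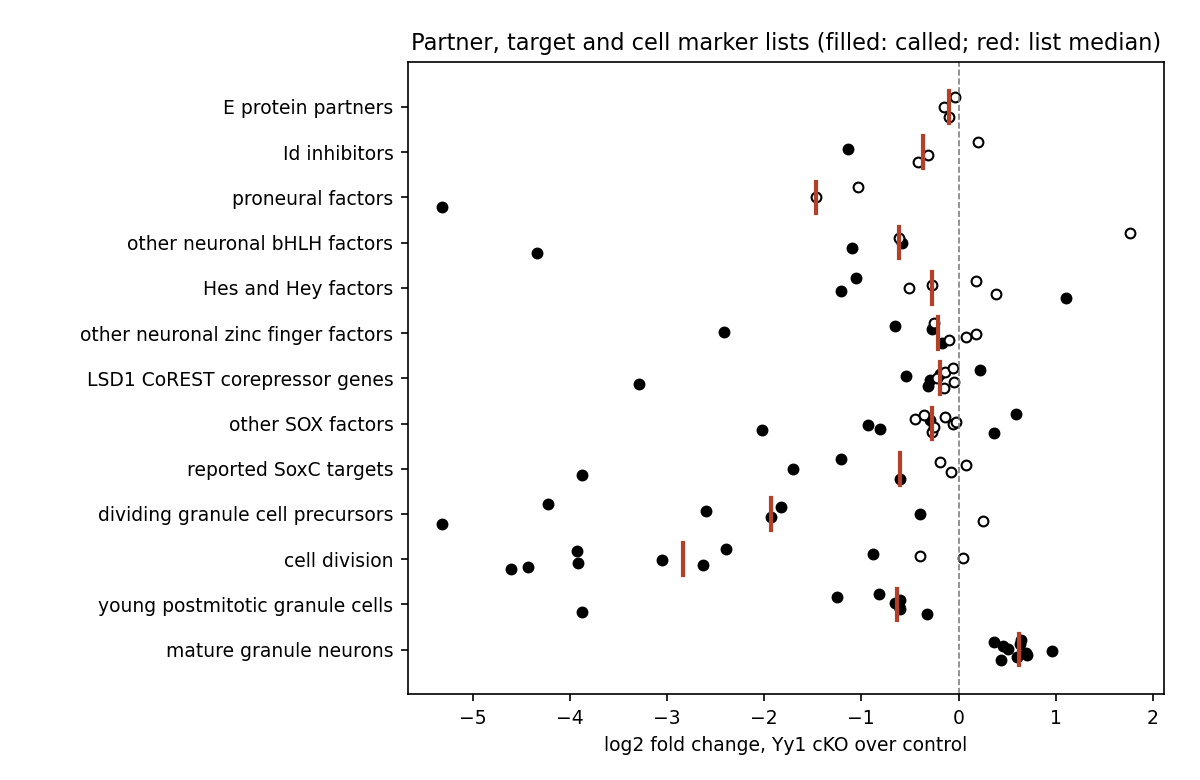
Log2 fold change, Yy1 cKO over control, of each tested gene in the 9 lists of partners, regulators and targets and in 4 lists of granule lineage markers; filled points were called in edgeR's test, open points were not, and red bars are list medians. E protein genes lie between -0.15 and -0.04, and all 10 markers of mature granule neurons lie above 0.

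Markers of the granule lineage, in lists also chosen with earlier results known, moved beside the 8 factors. Of all tested genes 12.6% were lower and 10.7% higher. Of 7 markers of dividing precursors 6 fell and 0 rose, and their summed level was 58.7 to 72.1 CPM in Yy1 cKO and 176 and 203 CPM in controls. Atoh1 was at or near 0 in Yy1 cKO and passed the filter through the control libraries alone. Gli1 was the marker not called (0.25 ± 0.26, adjusted p = 0.55 in edgeR's test), at 10.9 ± 2.8 CPM in Yy1 cKO and 9.11 ± 2.6 CPM in controls. Of 10 cell division genes 8 fell and 0 rose, summing to 38.0 to 39.9 CPM in Yy1 cKO and 125 and 146 CPM in controls. Pcna (0.04 ± 0.097) and Mcm2 (-0.40 ± 0.14) were not called (adjusted p = 0.80 and 0.069 in edgeR's test). Cdk1, which fell, passed the filter through the control libraries alone. Of 8 markers of young postmitotic granule cells 8 fell, summing to 1469 to 1608 CPM in Yy1 cKO and 2610 and 2718 CPM in controls. Of 10 markers of mature granule neurons 10 rose, summing to 4215 to 4697 CPM in Yy1 cKO and 2975 and 3070 CPM in controls. Counts by DESeq2 were 5, 8, 8 and 10, and with any 1 library left out they were 5 to 6, 8, 6 to 8 and 9 to 10 in edgeR. For the 0 rising in the first 3 lists the count was also 0 at an unadjusted p under 0.05 and by DESeq2. The part of these markers in the changes of the 8 factors was not tested.

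Of the other cell types, 5 of 7 interneuron markers rose (4 without Yy1 cKO 1 or Yy1 cKO 2), 1 of 7 Purkinje cell markers rose (2 without Yy1 cKO 3), and 1 of 5 unipolar brush cell markers rose and 1 fell. The lists of these cell types were likewise chosen with earlier results known, and the same shares of all tested genes stand beside them. With 1 library left out, the rising unipolar brush cell markers were 2 without Yy1 cKO 3 and 0 without any other library. Among 6 oligodendrocyte lineage markers 2 fell (3 without Yy1 cKO 3, 1 without control 2), among 6 markers of astrocytes and Bergmann glia 2 rose and 1 fell (1 rose without control 2, 2 fell without Yy1 cKO 3), among 4 endothelial markers 1 rose and 3 fell (0 rose with control 1, control 2, Yy1 cKO 1 or Yy1 cKO 2 left out, and 2 fell without either control or Yy1 cKO 1), and of 4 microglial markers 0 were called (0 also at an unadjusted p under 0.05 and by DESeq2). Several of the 8 factors are also strong in young forebrain neurons. Of 7 forebrain markers, Emx2 and Fezf2 were listed at 0 in every library, and the summed level of the list was 4.78 to 6.52 CPM in Yy1 cKO and 12.2 and 12.5 CPM in controls.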

How the data were processed

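The deposited raw count table holds whole-number read counts of 55421 genes in 3 Yy1 cKO and 2 control libraries (150-base paired reads, per the labels), with no further scaling by the authors. Per the submitters' processing notes, build GRCm38 was used with STAR 2.7.1a and featureCounts, besides DESeq2 1.26.0, Trimmomatic 0.39 and FastQC 0.11.8; their settings, the strand counted and how multi-mapping reads were handled: not given in the sources used here. The authors also deposited a normalized signal, the raw counts divided by 1 size factor per library (0.969 to 1.07); it served as an alternative. Symbols, exon lengths and coordinates came from GENCODE M21; 54587 identifiers matched fully, 567 without their version and 267 not at all. Promoters came from RefSeq (GRCm38.p6).

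The main test was edgeR 4.0.16 (quasi-likelihood, TMM, filterByExpr, robust dispersion, Benjamini-Hochberg over 20388 genes, threshold 0.05) in R 4.3.3, with groups from the sample titles and standard errors from the F statistic. CPM refers to the counts of tested genes. The test was checked on simulated counts. Alternatives were other scalings and filters, DESeq2 1.42.0, limma-voom and limma-trend (limma 3.58.1, log2 of the signal plus 1), the replicate block, a stricter threshold and each library left out. Members and lists were chosen with earlier results of these data known. Named were all members, the up to 4 genes of smallest p per list (all, in lists of up to 5), and the 3 genes nearest each member; some items are not reported here. Scrt1, St18, Nrcam, Plxna1, Sox7, Sox10, Gli1, Pcna, Mcm2 and Cdk1 were named after their values were seen.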

Additional observations from a re-analysis of the deposited data

How the results depend on the processing

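The 7 falls and the 1 missing call among the 8 factors stayed on their side of the threshold, with the same sign, under all 15 alternatives (16 for the counts, with the stricter threshold). Their log2 fold changes ranged from -6.98 to -5.63 for Nhlh1, -5.71 to -4.97 for Insm1, -3.80 to -3.62 for Sox11, -2.39 to -2.27 for Sox4, -1.31 to -1.21 for Nhlh2, -1.09 to -0.98 for Sox12, -0.58 to -0.43 for Neurod2 and -0.18 to -0.07 for Neurod1. Counts over all tested genes moved more. Higher genes, 2185 in the main test, were 1432 with library size alone, 1095 at an adjusted p of 0.01, 3486 with the replicate block and 870 to 2968 with 1 library left out. Lower genes, 2577 in the main test, were 3369 with library size alone, 1453 at an adjusted p of 0.01 and 1266 to 3099 with 1 library left out. Of the genes in the lists of partners, regulators and targets, 4 were higher in the main test, 1 with library size alone, 1 at an adjusted p of 0.01, 9 with the replicate block and 0 to 7 with 1 library left out. Of these genes 23 were lower in the main test, 15 at an adjusted p of 0.01 and 13 to 32 with 1 library left out, 13 without control 1 and 14 without control 2. A fit with a lone control borrows the spread of the 3 Yy1 cKO libraries. The stricter threshold and fewer libraries lower counts by construction; the other causes were not tested. Library size alone shifted the median log2 fold change of all genes to -0.08. Same-numbered libraries showed little shared deviation (r = 0.037 for number 1 and 0.013 for number 2). The deviations of the 2 controls mirror each other, so this cannot exclude a pairing. The labels do not say which animal each library came from. With the replicate block 3575 of all tested genes were lower, and 34 of the genes in the lists of partners, regulators and targets. That block leaves Yy1 cKO 3 without weight because no control has its number. Among single genes of the lists and neighbours 2283 values stayed on their side of the threshold, 137 lost and 86 gained a call, and 0 turned sign while called. Depth limits Nhlh1 and Insm1, with 33 counts or fewer in each Yy1 cKO library, and 2 controls limit every error.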

Other observations

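The genes next to the 8 factors on the chromosome changed about as often as genes at large. Of 29 neighbours, taken by position as the matched genes of the count table within 50 kb and the next coding gene on each side, 24 were tested, 4 fell and 2 rose, or 25% called beside 23.4% of all tested genes (edgeR's quasi-likelihood test, adjusted p under 0.05). Their log2 fold changes ran from -1.14 to 0.64. Beside Nhlh1, Ncstn, a subunit of gamma-secretase at 8440 bases, had 1001, 860 and 1014 counts in Yy1 cKO and 1039 and 969 in controls (-0.12 ± 0.075, adjusted p = 0.30), while Vangl2, a planar polarity gene, fell by 0.60 ± 0.086 (adjusted p = 9.7e-04). Beside Insm1, Ralgapa2 had 1458, 1251 and 1302 counts in Yy1 cKO and 1398 and 1170 in controls (0.01 ± 0.074, adjusted p = 0.95), and Cfap61 had 14, 13 and 25 counts in Yy1 cKO and 34 and 40 in controls (-1.14 ± 0.34, adjusted p = 0.039). The Cfap61 call was lost without control 1 (adjusted p = 0.11), control 2 (0.22), Yy1 cKO 1 (0.12) or Yy1 cKO 2 (0.12). Cerkl, which overlaps Neurod1, rose by 0.64 ± 0.16 (adjusted p = 0.017), a call lost without control 1 (adjusted p = 0.095) or control 2 (adjusted p = 0.14); its reads may be mixed with those of Neurod1. The next coding genes around Sox11 lie 854427 bases or more away, and Cmpk2, the 1 of them that was tested, was not called (0.44 ± 0.17, adjusted p = 0.099) except without control 1 (0.74, adjusted p = 0.045). These neighbours were added after results were known and named after their values were seen.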
